A study of Marchantia polymorpha with 18 samples.

Results

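The transcript response to wounding that is left when the jasmonate receptor gene is mutated was measured in the liverwort Marchantia polymorpha by RNA sequencing. The libraries were chosen by their labels alone: 3 from wounded and 3 from mock-treated plants of the mutant Mpcoi1, which make 6 of the 18 libraries of the series. A further pair of genotypes was treated in the same way with 3 wounded and 3 mock libraries each, the double mutant Mpdes6fad5 of a pair of fatty acid desaturase genes and the male wild-type accession Tak-1. All plants were grown for 3 weeks on agar medium, wounds were made with tweezers, and a replicate pooled 6 to 8 plants. The tissue is labelled as leaflets, whereas the protocol describes apical fragments with the gemma cups left out. The treatment label gives 2 hours after wounding and the protocol gives freezing after 90 minutes, so the time is known only as one of these. The nature of the Mpcoi1 lesion, the number of independent lines and the sex of the mutant are not stated in the labels.

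In jasmonate signalling, wounding of a plant releases fatty acids that are turned into an oxylipin hormone, which in Marchantia is dinor-OPDA. The F-box protein COI1 binds the hormone together with JAZ repressors, the JAZ proteins are degraded, and bHLH factors of the MYC type are freed to activate their targets. Wounded plant cells also send calcium, reactive oxygen and MAP kinase signals that do not need this receptor. A coi1 mutant without receptor function would separate these branches from the branch that runs through COI1. How much function is left in Mpcoi1 is not stated in the labels.

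Expression is given in CPM (counts scaled to the library size), and changes as differences of log2(CPM + 1) with their standard error from limma, wounded minus mock unless another contrast is named. A gene was called, and is said to have risen or fallen, where the Benjamini-Hochberg adjusted p was under 0.05 over the 13220 genes tested. The 6 Mpcoi1 libraries held 22684409 to 26303510 reads in genes, so the upper limit for a gene with no read in one of them, set by 3 reads, was 0.113 to 0.133 CPM. Wounding was the main axis among these libraries, with 88.5% of the variance on the first principal component. Wounded replicate 3 stood somewhat apart, with Pearson correlations across genes of 0.9935 and 0.9912 to wounded replicates 1 and 2, which correlated with each other at 0.9962, and mock libraries correlated at 0.9968 to 0.9972. Markers of the thallus and its apical notch were present: MpSHI had 128, 131 and 101 CPM in wounded and 86.7, 87.8 and 82.4 CPM in mock libraries, and the auxin synthesis gene MpTAA had 9.17, 9.15 and 8.18 CPM in wounded and 12, 12.2 and 14.1 CPM in mock libraries. The gemma cup regulator MpGCAM1 had 0, 0.177 and 0.267 CPM in wounded libraries and no read in mock ones, from tissue that the protocol describes as free of gemma cups. The other gemma cup marker read, MpKAR (Mp5g06550), had 28.8, 26.8 and 30.2 CPM in wounded and 31.1, 33.6 and 30.9 CPM in mock libraries. These markers went apart, so they do not settle whether gemma cups were absent. In whole tissue, a lower level of a transcript per cell and fewer cells that hold it cannot be told apart.

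The core of the jasmonate pathway was read first. MpCOI1 (Mp2g26590), the receptor gene, had 26.6, 24.8 and 20.4 CPM in wounded Mpcoi1 libraries, against 27, 23.6 and 24.7 CPM in mock Mpcoi1 libraries, and these ranges overlapped (log2 change -0.07 ± 0.08 (SE), adjusted p = 0.505). In mock plants the transcript was lower in Mpcoi1 than in Tak-1, with a log2 difference of -1.77 ± 0.08 (adjusted p = 2.66e-10), with 27, 23.6 and 24.7 CPM in Mpcoi1 and 84.1, 90.9 and 87.9 CPM in Tak-1. MpJAZ (Mp6g06230), the repressor that is itself a target of the pathway, had 25.6, 27.3 and 24.6 CPM in wounded and 16.2, 17.1 and 18.7 CPM in mock Mpcoi1 libraries. The groups did not overlap, and the small rise of 0.55 ± 0.09 was called (adjusted p = 5.24e-05). In Tak-1 the same gene had 176, 192 and 155 CPM after wounding and 23.9, 31 and 27.9 CPM after mock treatment, and the responses of Mpcoi1 and Tak-1 differed by -2.07 ± 0.13 (adjusted p = 1.79e-09). Its mock level was lower in Mpcoi1 than in Tak-1 (-0.64 ± 0.09, adjusted p = 2.42e-04). MpNINJA (Mp1g04410) and MpTPL (Mp7g17410), an adaptor and a co-repressor that act with JAZ, rose by 0.65 ± 0.08 and 0.28 ± 0.07 in Mpcoi1 (the call for MpTPL was lost with quantile normalization), and for neither was a difference from Tak-1 called (-0.12 ± 0.11, adjusted p = 0.642, and 0.06 ± 0.10, adjusted p = 0.817).

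Wounding changed many transcripts in Mpcoi1, and the large changes were mostly rises. In Mpcoi1, 6999 of the 13220 tested genes were called, which is 52.9%, with 3234 rises (24.5%) and 3765 falls (28.5%). Wounded and mock libraries did not overlap for 62.1% of tested genes. Of the rises, 974 reached 2-fold, 297 reached 4-fold and 96 reached 8-fold, whereas 312 falls reached 2-fold, 19 reached 4-fold and 0 reached 8-fold. These folds are on the log2(CPM + 1) scale, which understates the change of low genes, and with voom, which works on the recovered reads, 225 rises and 33 falls reached 8-fold. The 974 genes with 2-fold rises held 14.21%, 14.18% and 13.09% of the reads in the wounded libraries, against 4.24%, 4.01% and 4.10% in the mock libraries. The 312 genes with 2-fold falls held 0.42%, 0.43% and 0.45% of the reads after wounding, against 1.13%, 1.12% and 1.14% after mock treatment. Wounded replicate 3 was the lowest of the wounded libraries for 633 of the 974 genes, and the median change of these genes was 1.62, 1.63 and 1.49 in wounded replicates 1, 2 and 3. Without that library 3148 genes rose and 3518 fell.

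**Figure D1:**
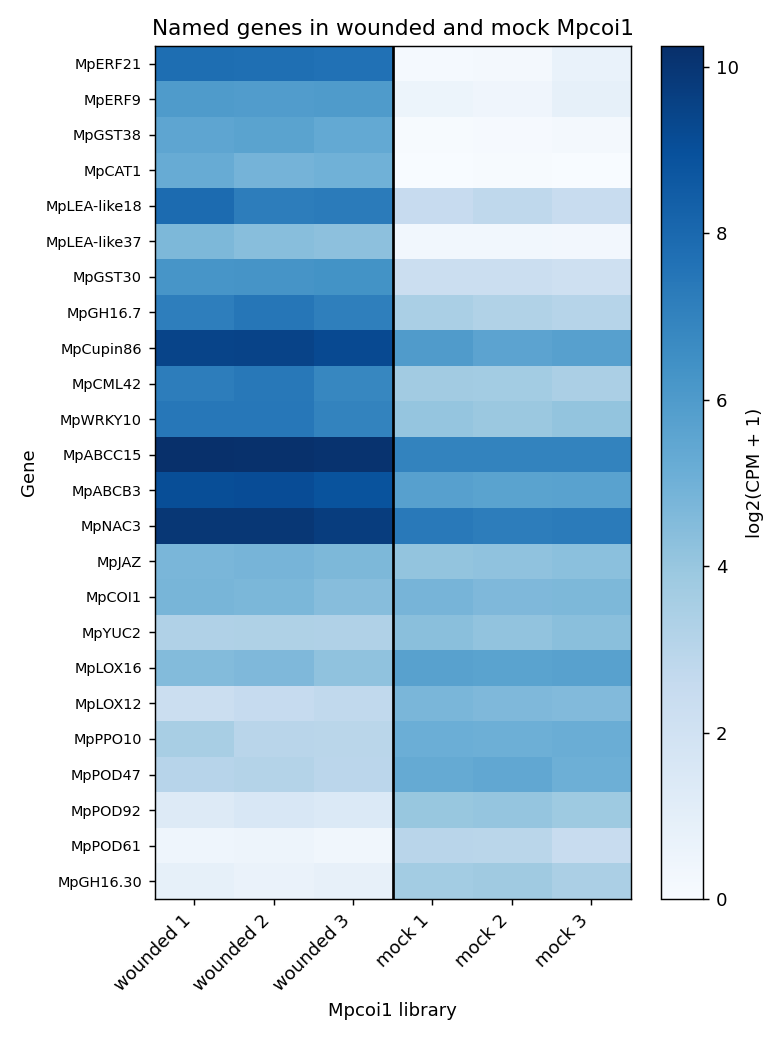
Level of 24 named genes, as log2(CPM + 1), in each of the 3 wounded (left) and 3 mock (right) Mpcoi1 libraries, with one row per gene and darker cells for higher levels. Rises such as that of MpERF21, at 203 CPM or more in wounded libraries, and falls such as that of MpGH16.30, below 1 CPM in wounded libraries, are seen in all replicates.

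A group of 15 genes was at 10 CPM or more in every wounded Mpcoi1 library and below 1 CPM in every mock one, and no gene showed the reverse. Of these, 7 have a symbol: MpERF21, MpERF9, MpGST38, MpCAT1, MpLEA-like37, MpBHLH51 and MpABCG29. Of the 50 largest rises 13 have a symbol, and of the 50 largest falls 28 do, against 2516 of the 13220 tested genes. Outside the naming rule, and picked after their values were seen, the largest rises without a symbol were those of Mp5g20060, at 7.33 ± 0.15, and Mp6g05600, at 6.05 ± 0.16.

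Transcription factor genes of several families rose steeply in Mpcoi1. MpERF21 (Mp5g22160), of the AP2/ERF family of DNA-binding proteins, had 223, 217 and 203 CPM in wounded Mpcoi1 libraries, against 0.113, 0.162 and 0.625 CPM in mock libraries. This was the largest rise of all tested genes, at 7.39 ± 0.12 (adjusted p = 3.74e-18). MpERF9 (Mp4g17430) followed with 62.8, 58.6 and 62.4 CPM after wounding, against 0.453, 0.325 and 0.792 CPM in mock libraries (5.36 ± 0.14). MpERF15 (Mp7g09350) rose by 3.17 ± 0.27 and MpERF18 (Mp5g12480) by 1.57 ± 0.08. Among the 19 AP2/ERF genes tested, 8 rose, 5 fell and 6 were not called, and the family's median of 0.031 changed sign with scaling by library totals (-0.022). The median over all tested genes was -0.051.

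WRKY genes, whose products bind W-box elements and are widely tied to defence, mostly rose. Of 13 tested, 11 rose, 0 fell and 2 were not called, with a median of 1.09, and the same counts were obtained under each scaling tried and with voom. Without wounded replicate 3, 10 rose and 0 fell, and at an unadjusted p under 0.05 in limma 0 fell as well. MpWRKY10 (Mp7g06550) had 170.3, 169 and 122 CPM in wounded and 15.7, 14.1 and 16.4 CPM in mock Mpcoi1 libraries (3.22 ± 0.16). MpWRKY9 (Mp7g17200) had 161, 159 and 158 CPM after wounding, against 26.5, 29.8 and 26.9 CPM after mock treatment. MpWRKY6 (Mp1g08960) stood at 5.08, 4.91 and 5.78 CPM in wounded libraries and was scarce in mock ones, at 0.189, 0.325 and 0.5 CPM. The response was called as different from that of Tak-1 for 0 of the 13 WRKY genes in limma, with or without voom, and 1 passed an unadjusted p of 0.05.

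NAC and GRAS factors leaned the same way, with 11 rises, 5 falls and 4 genes not called among 20, and a median of 0.43. MpNAC3 (Mp4g11910) had 986, 983 and 840.5 CPM in wounded and 163, 145 and 154 CPM in mock libraries (2.59 ± 0.07). MpNAC4 (Mp4g22890) had 801, 786 and 744 CPM after wounding, against 142, 139 and 124 CPM after mock treatment, and rose more than in Tak-1, by 0.50 ± 0.13 (adjusted p = 0.0181), a call lost without wounded Mpcoi1 replicate 1, without mock Mpcoi1 replicate 3 and without mock Tak-1 replicate 1. MpGRAS4 (Mp2g03850) rose by 2.86 ± 0.11 and MpGRAS7 (Mp8g01770) by 2.11 ± 0.19. The zinc finger gene MpC2H2-13 (Mp3g09820) had 188, 182 and 165 CPM in wounded libraries, against 21, 20.8 and 20.2 CPM in mock ones, a rise of 3.04 ± 0.08, while MpC2H2-14 (Mp3g21490) fell (-0.54 ± 0.11). Among the 21 C2H2 genes tested, 6 rose (28.6%) and 2 fell (9.52%), against 24.5% and 28.5% over all tested genes.

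The bHLH and MYB families went both ways. Of 38 bHLH genes, 11 rose (28.9%), 14 fell (36.8%) and 13 were not called, against 24.5% rising and 28.5% falling over all tested genes. MpBHLH51 (Mp8g06230) had 14.3, 20.5 and 20.6 CPM after wounding, against 0.0756, 0.244 and 0.459 CPM after mock treatment, and MpBHLH24 (Mp8g04130) rose by 1.89 ± 0.14. MpBHLH2 (Mp2g00890) had 28.1, 27.9 and 26.3 CPM in wounded Mpcoi1 libraries, against 9.6, 10.2 and 10.9 CPM in mock ones (1.34 ± 0.09). Its neighbour MpBHLH4 (Mp2g00930) stayed near the detection limit, at 0.213, 0.133 and 0 CPM after wounding and 0.264, 0.122 and 0.0834 CPM after mock treatment. Of 44 MYB genes, 13 rose (29.5%) and 9 fell (20.5%), among them MpR2R3-MYB17 (Mp1g09420) at 1.51 ± 0.10 and MpRR-MYB2 (Mp2g13020) at -1.0 ± 0.07. Among 156 factors of other families, 63 rose and 35 fell, led by MpB3-8 (Mp2g08260) at 2.96 ± 0.19, MpC3H1 (Mp1g00530) at 2.34 ± 0.11 and MpBZIP13 (Mp2g16440) at 1.79 ± 0.10. The median of these other factors, 0.065, became -0.014 with quantile normalization.

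Genes of the MAP kinase cascade and of protein phosphatases 2C, taken as one list, rose more often than they fell. They numbered 49, of which 23 rose (46.9%), 7 fell (14.3%) and 19 were not called, with 21 rises and 13 falls under quantile normalization. The shares over all tested genes were 24.5% rising and 28.5% falling. The phosphatase gene MpPP2C_G (Mp6g03430) had 553, 544 and 459 CPM in wounded and 73.6, 69.6 and 71.7 CPM in mock libraries (2.83 ± 0.09). MpMAPKKK16 (Mp7g02280) and MpMAPKKK4 (Mp2g03930), at the top tier of MAP kinase cascades, rose by 1.58 ± 0.11 and 1.43 ± 0.10. Of 9 calcium signalling genes, 4 rose (44.4%) and 1 fell (11.1%), or 4 rose and 3 fell with quantile normalization and with library totals. MpCML42 (Mp6g18000), a calmodulin-like calcium sensor, had 146, 166 and 112 CPM after wounding, against 11.9, 11.7 and 9.8 CPM after mock treatment (3.54 ± 0.13). MpCAMTA (Mp7g03150), a calmodulin-binding transcription factor, rose by 0.84 ± 0.07, and the calcium sensor gene MpCBL-B (Mp4g00900) fell (-0.70 ± 0.06).

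Receptor-like kinases, which sense signals at the cell surface, had 28 rises (31.1%), 31 falls (34.4%) and 31 genes not called among 90, near the shares over all tested genes, 24.5% and 28.5%. The lectin-type kinase gene MpRLK-Pelle_L-LEC29 (Mp6g16970) had 46.7, 41.3 and 45.6 CPM in wounded and 7.1, 5.65 and 6.92 CPM in mock libraries. Of 6 heat shock genes, 4 rose (66.7%) and 1 fell (16.7%). The chaperone gene MpHSP90-1 (Mp1g26610) had 808, 904 and 775 CPM after wounding, against 346, 315 and 340.2 CPM after mock treatment. A pair of metacaspase genes, which encode cysteine proteases, went apart: MpMCA-IIc (Mp8g07700) fell to 4.01, 4.78 and 5.03 CPM in wounded libraries, against 23.1, 20.9 and 19.5 CPM in mock ones. MpMCA-I (Mp7g17040), named after its values were seen, rose by 1.78 ± 0.08.

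**Figure D2:**
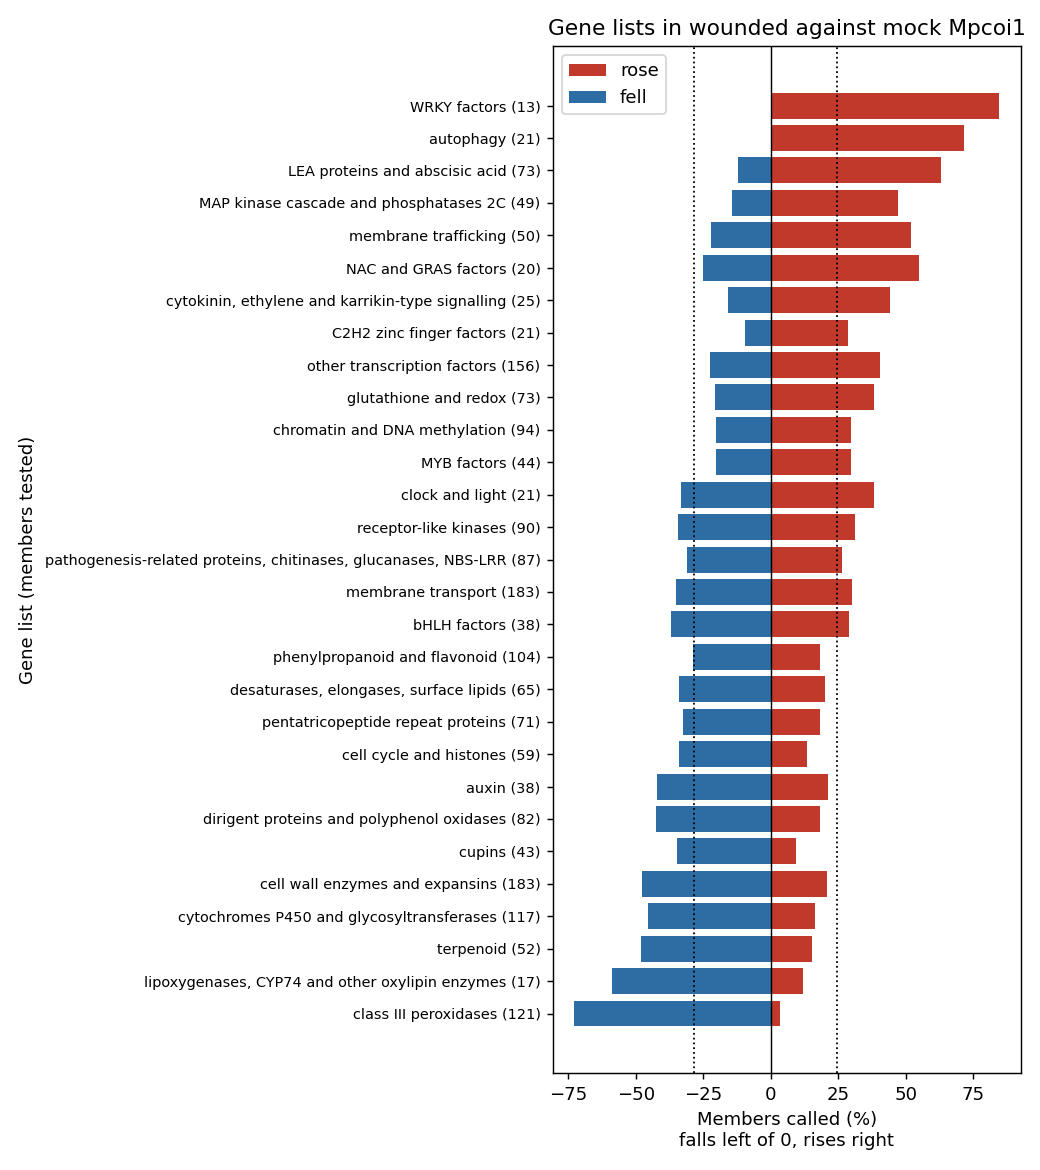
Percent of tested members of 29 gene lists (those with 20 or more tested members except the ABC transporters, which are part of membrane transport, and the WRKY and oxylipin lists) that rose (right, positive side) or fell (left, negative side) after wounding in Mpcoi1, with dotted lines at the shares over all tested genes, 24.5% rising and 28.5% falling. Of the lists drawn, WRKY genes have the highest share of rises and class III peroxidases the highest share of falls.

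Among the lists of more than 50 tested genes, the one with the largest share of rises was that of drought-type protection. Of 73 genes for late embryogenesis abundant (LEA) proteins and abscisic acid, 46 rose, 9 fell and 18 were not called, with a median of 1.00, and 36 of the rises reached 2-fold. LEA proteins are hydrophilic proteins known to build up in drying plant tissue. The summed level of the list was 4242, 4095 and 3671 CPM in wounded Mpcoi1 libraries, against 2280, 2142 and 2214 CPM in mock ones. MpLEA-like18 (Mp4g05730) had 237, 146 and 151 CPM after wounding, against 4.72, 5.97 and 4.54 CPM after mock treatment (4.85 ± 0.19). MpLEA-like19 (Mp4g05750), which lies close to it in identifier order, rose by 4.02 ± 0.23. The dehydrin gene MpDHN1 (Mp6g07540) had 42.3, 42.9 and 41.5 CPM in wounded and 3.4, 4.71 and 2.25 CPM in mock libraries (3.32 ± 0.28). MpCYP707A (Mp2g25940), of the P450 family that breaks down abscisic acid in Arabidopsis, rose as well, with 14.5, 11.6 and 16.8 CPM after wounding, against 2.42, 1.02 and 2.38 CPM after mock treatment.

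A run of 5 neighbouring tested identifiers on chromosome 6, MpLEAL3 and MpLEA-like34 to MpLEA-like37, rose together by 2.43 to 4.14. The steepest of them was MpLEA-like37 (Mp6g03000), at 24.5, 19.7 and 18.2 CPM after wounding and 0.227, 0.244 and 0.208 CPM after mock treatment. Nearby, MpLEA-like39 (Mp6g03050) had 11.3, 6.5 and 5.12 CPM in the wounded Mpcoi1 libraries and no read in any mock one. Tandem copies of this kind can share reads, so the split between neighbours is uncertain.

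Glutathione and redox genes held very large rises, while the median of the list was close to 0. Of 73 tested, 28 rose, 15 fell and 30 were not called, with a median of 0.043 that became -0.038 with quantile normalization and -0.024 with library totals, and 21 of the rises reached 2-fold. MpGST38 (Mp2g03760), of the glutathione transferases that couple glutathione to reactive compounds, had 44.2, 48.4 and 39.3 CPM in wounded libraries, against 0.0378, 0.0812 and 0.125 CPM in mock ones (5.37 ± 0.13). MpGST30 (Mp2g22410) and its neighbour MpGST29 (Mp2g22390) rose by 4.03 ± 0.12 and 3.77 ± 0.13. MpCAT1 (Mp7g09020) had 36.2, 28.3 and 31 CPM after wounding, against 0, 0.0406 and 0 CPM after mock treatment. The list as a whole held 12371, 12793 and 11554 CPM in wounded libraries, against 8330.5, 8255 and 8253 CPM in mock ones.

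Among transport genes, large rises were frequent in the ABC transporters, a family of ATP-driven membrane proteins. Of 183 transport genes, 55 rose (30.1%) and 64 fell (35%), near the shares over all tested genes, 24.5% and 28.5%. Among the 88 ABC transporters in it, a subset singled out after the values were seen, 35 rose, 24 fell and 29 were not called, with 31 rises and 29 falls under library totals. All 19 changes of these ABC genes that reached 2-fold were rises. Over all 13220 tested genes, 974 rises and 312 falls reached 2-fold. The summed level of the 88 ABC genes was 8975, 8959 and 8296 CPM in wounded libraries, against 3713, 3592 and 3658 CPM in mock ones. MpABCC15 (Mp7g13860) had 1219.9, 1186 and 1096 CPM after wounding, against 124, 124 and 123 CPM after mock treatment (3.23 ± 0.09). MpABCB3 (Mp3g11830) had 537, 545 and 461 CPM after wounding, against 52.4, 48.6 and 49.9 CPM after mock treatment, and MpABCG31 (Mp8g09300) had 382, 386 and 302 CPM after wounding, against 32.9, 32.3 and 34.3 CPM after mock treatment. MpABCG29 (Mp2g21340) had 10.5, 10.2 and 14.3 CPM in wounded libraries and was scarce in mock ones, at 0.113, 0.0812 and 0.167 CPM.

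Class III peroxidases, secreted enzymes that cross-link or loosen wall polymers, mostly fell. Of 121 tested, 4 rose, 88 (72.7%) fell and 29 were not called, with a median of -0.82, and 49 falls reached 2-fold. MpPOD92 (Mp5g10750) had 1.54, 1.99 and 1.65 CPM in wounded libraries, against 14.9, 15.6 and 13.3 CPM in mock ones (-2.52 ± 0.18). MpPOD47 (Mp4g14270) had 7.12, 7.87 and 6.45 CPM after wounding, against 38.2, 42.3 and 32.4 CPM after mock treatment. MpPOD61 (Mp5g02600), MpPOD60 (Mp5g02520) and MpPOD71 (Mp5g04290) changed by -2.36 ± 0.26, -2.34 ± 0.16 and -2.20 ± 0.17. MpPOD148 (Mp7g07630) went against the family, with 268, 244 and 186 CPM after wounding and 43.4, 45 and 40.1 CPM after mock treatment (2.40 ± 0.13). MpPOD18 (Mp2g20950) also rose, by 3.05 ± 0.18. Runs of neighbouring genes fell together, with 3 peroxidase genes among 6 adjacent falls on chromosome 5, ending at Mp5g12180, and 3 more among 4 on chromosome 3, ending at Mp3g15810.

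Genes of the cell wall fell more often than they rose. Among 183 tested, 38 rose (20.8%), 87 fell (47.5%) and 58 were not called, with a median of -0.26. The shares over all tested genes were 24.5% and 28.5%. MpGH16.30 (Mp4g00700), of the family that holds the xyloglucan-remodelling enzymes, had the steepest named fall, with 0.81, 0.575 and 0.756 CPM after wounding, against 11.7, 12.8 and 9.76 CPM after mock treatment (-2.85 ± 0.23). Another member of that family, MpGH16.7 (Mp2g17810), rose, with 140.0, 174 and 136 CPM after wounding, against 10.1, 8.37 and 7.38 CPM after mock treatment (3.97 ± 0.15). The pectin methylesterase gene MpCE8.8 (Mp3g15910) had 34, 28.8 and 34.4 CPM in wounded and 1.85, 0.812 and 1.13 CPM in mock libraries, and MpEXL4 (Mp7g05050) rose by 2.86 ± 0.12.

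Dirigent proteins, which guide the coupling of phenols, and polyphenol oxidases, which oxidise them, counted 15 rises (18.3%), 35 falls (42.7%) and 32 genes not called among 82. The shares over all tested genes were 24.5% and 28.5%. MpPPO10 (Mp6g17930) had 10.3, 6.94 and 6.76 CPM after wounding, against 33.9, 32.6 and 34.4 CPM after mock treatment, and was the last of 5 neighbouring polyphenol oxidase genes on chromosome 6 that fell together. MpPPO14 (Mp6g19030) fell (-1.87 ± 0.15), with 3 neighbours in identifier order. The dirigent gene MpDIR51 (Mp6g11930) rose, with 13.2, 14.1 and 7.52 CPM after wounding, against 0.756, 0.975 and 1.13 CPM after mock treatment. Cupins, a superfamily that includes seed storage proteins, gave 4 rises (9.3%) and 15 falls (34.9%) among 43. The steepest change among them was the rise of MpCupin86 (Mp5g19670), with 697, 704 and 607 CPM after wounding and 60.3, 46.5 and 53.4 CPM after mock treatment. Pathogenesis-related and defence genes had 23 rises (26.4%) and 27 falls (31%) among 87, close to the shares over all tested genes. Among them MpGH17.15 (Mp6g00360), of the glucanase family, had 327, 338 and 313 CPM after wounding, against 64.5, 52.6 and 63.6 CPM after mock treatment, and the chitinase-family gene MpGH19.4 (Mp4g01780) rose by 1.35 ± 0.15.

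Phenylpropanoid and lipid genes were called at shares near those over all tested genes, 24.5% rising and 28.5% falling. Cytochrome P450, glycosyltransferase and terpenoid genes fell more often and rose less often than that. The phenylpropanoid and flavonoid list had 19 rises (18.3%) and 30 falls (28.8%), and 55 of its 104 genes were not called. The coumarate-CoA ligase gene Mp4CL1 (Mp1g27780), which acts at the entry of this metabolism, had 146, 162 and 143 CPM after wounding, against 13.9, 12.9 and 14.4 CPM after mock treatment (3.36 ± 0.06). MpPKS/CHS7 (Mp2g22780), of the chalcone synthase type, fell (-2.29 ± 0.27). Of 117 cytochrome P450 and glycosyltransferase genes, 19 rose (16.2%) and 53 fell (45.3%), with MpUGT35 (Mp8g09770) at 2.51 ± 0.14. MpCYP710A16 (Mp1g00490), of a sterol desaturase family, had 754, 794 and 767 CPM after wounding, against 187, 200.3 and 176 CPM after mock treatment. Of 52 terpenoid genes, 8 rose (15.4%) and 25 fell (48.1%), with the terpene synthase-like gene MpMTPSL-like (Mp5g18940) at 2.59 ± 0.16 and MpDXR2 (Mp8g01240), of the plastid isoprenoid pathway, at -0.90 ± 0.10. Of 65 lipid genes, 13 rose (20%) and 22 fell (33.8%), and both the desaturase gene MpFAD4 (Mp3g06040), at 1.82 ± 0.10, and the elongase gene MpFAE2 (Mp2g20240), at 1.67 ± 0.09, were among the rises.

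Lipoxygenase and related genes of oxylipin synthesis fell more often than they rose in Mpcoi1. Among lipoxygenase, CYP74 and related genes, 17 were tested, 2 rose (11.8%), 10 fell (58.8%) and 5 were not called, with a median of -0.67. The shares over all tested genes were 24.5% and 28.5%. Of 9 GH3 and CYP94 genes, of families with members that modify jasmonates in Arabidopsis, 2 rose, 4 fell and 3 were not called. Lipoxygenases oxidise the fatty acids from which jasmonates are built. MpLOX12 (Mp8g01650) had 3.92, 4.82 and 5.6 CPM after wounding, against 25.7, 23.7 and 22.2 CPM after mock treatment (-2.11 ± 0.18), and MpLOX13 (Mp8g15570) changed by -1.99 ± 0.24. MpLOX16 (Mp2g16000) had 21.7, 23.5 and 17 CPM after wounding, against 51.3, 48.9 and 51.2 CPM after mock treatment. MpLOX1 (Mp2g00660) was a rise that rested on spread replicates, with 29, 28.8 and 66.1 CPM in wounded and 7.33, 11.5 and 5.29 CPM in mock libraries (2.17 ± 0.68). Without wounded replicate 3 its change of 1.79 was not called. MpCYP94L1 (Mp5g04140), of a P450 family that oxidises jasmonates in Arabidopsis, rose, with 36.6, 40.2 and 41.2 CPM after wounding, against 4.99, 5.2 and 5.34 CPM after mock treatment. The related MpCYP94-like (Mp2g10330) was not called, at 1.02, 1.11 and 1.65 CPM after wounding and 1.7, 1.42 and 1.25 CPM after mock treatment.

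**Figure D3:**
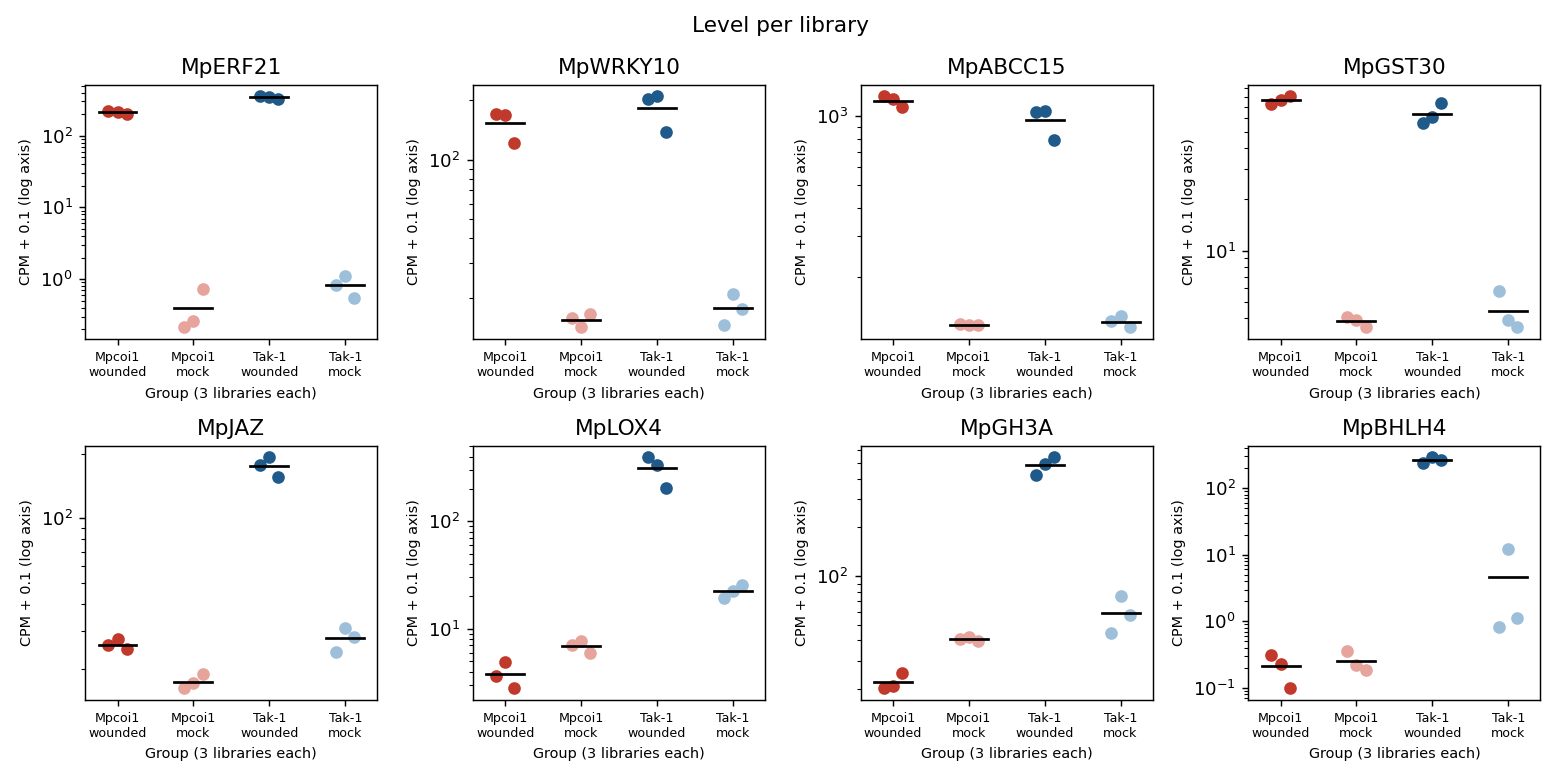
CPM on a log axis, drawn as CPM + 0.1, of 8 genes in each library of wounded Mpcoi1, mock Mpcoi1, wounded Tak-1 and mock Tak-1, with one point per library and a bar at the mean. MpERF21, MpWRKY10, MpABCC15 and MpGST30 separate wounded from mock in both genotypes, whereas MpJAZ, MpLOX4, MpGH3A and MpBHLH4 do so by more than 2-fold in Tak-1 only.

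Genes of other hormones changed in part. Of 38 auxin genes, 8 rose (21.1%) and 16 fell (42.1%), against 24.5% and 28.5% over all tested genes. MpYUC2 (Mp8g08780), a flavin monooxygenase gene of auxin synthesis, had 8.57, 8.75 and 8.67 CPM after wounding, against 19.3, 16.6 and 19.5 CPM after mock treatment (-1.01 ± 0.12). MpPIN3 (Mp6g07950), of the auxin efflux carriers, had 22, 24 and 29.4 CPM after wounding, against 6.54, 3.94 and 5.21 CPM after mock treatment. The small auxin-up genes MpSAUR13 (Mp1g27930) and MpSAUR3 (Mp6g08420) went apart, at 2.16 ± 0.19 and -1.15 ± 0.12. Of 25 genes of cytokinin, ethylene and karrikin-type signalling, 11 rose and 4 fell, with the cytokinin receptor gene MpCHK1 (Mp2g03050) at 0.93 ± 0.07, the kinase gene MpCTR3 (Mp8g16320) at 1.46 ± 0.07 and MpEBF1-2 (Mp8g05840), of the F-box genes that in Arabidopsis restrain ethylene signalling, at -0.82 ± 0.06. The median of this list, 0.043, became -0.027 with library totals. Among 21 clock and light genes, 8 rose (38.1%) and 7 fell (33.3%). MpGI (Mp1g13750), the GIGANTEA gene of the clock, had 393, 361 and 401 CPM after wounding, against 127, 132 and 127 CPM after mock treatment, and the blue-light receptor gene MpPHOT (Mp5g03810) had 245, 232 and 235 CPM after wounding, against 403, 403 and 382 CPM after mock treatment.

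Autophagy genes, which encode the machinery that recycles cell contents, shifted upward by small steps. Of 21 tested, 15 rose, 0 fell and 6 were not called, with a median of 0.30, and none of the rises reached 2-fold. At an unadjusted p under 0.05 in limma 1 fell, and with voom 15 rose and 0 fell. With quantile normalization 11 rose and 0 fell, and with library totals 13 rose and 1 fell. MpATG18c (Mp5g05830) had 32.1, 32 and 25.5 CPM after wounding, against 15.9, 14 and 13.6 CPM after mock treatment, and MpATG7 (Mp2g07850) had 148, 154 and 126 CPM after wounding, against 93.3, 92.6 and 87.8 CPM after mock treatment. MpATG2 (Mp6g18570) rose by 0.61 ± 0.08 and MpATG9 (Mp1g27300) by 0.57 ± 0.08. Of 50 genes of membrane trafficking, 26 rose and 11 fell, or 18 rose and 16 fell with quantile normalization. MpVPS15 (Mp1g27200), a subunit of the lipid kinase complex used in autophagy and vacuolar sorting, had 130.4, 124 and 118 CPM after wounding, against 45.6, 43.3 and 42.5 CPM after mock treatment. Peroxisome biogenesis genes gave 3 rises (17.6%) and 4 falls (23.5%) among 17. Pentatricopeptide repeat genes, which act on organelle RNA, gave 13 rises (18.3%) and 23 falls (32.4%) among 71. The shares over all tested genes were 24.5% and 28.5%.

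Among cell cycle and histone genes falls outnumbered rises, as they did over all tested genes. There were 8 rises (13.6%), 20 falls (33.9%) and 31 genes not called among 59, against 24.5% and 28.5% over all tested genes. The linker histone gene MpH1 (Mp6g03150) had 102, 112 and 114 CPM in wounded libraries, against 196, 188 and 189.6 CPM in mock ones. The mitotic kinase gene MpCDKB (Mp5g19170) fell (-0.82 ± 0.18), and MpSMR (Mp1g14080), of the cyclin-dependent kinase inhibitors, rose (1.46 ± 0.09). Among 94 chromatin and DNA methylation genes, 28 rose (29.8%) and 19 fell (20.2%), against 24.5% and 28.5% over all tested genes. The median of this list, -0.0088, became 0.015 with median-of-ratios rescaling. MpDCL3 (Mp6g09830), of the Dicer-like enzymes that make small RNAs, had 6.4, 5.44 and 6.36 CPM after wounding, against 13.7, 15.4 and 13.7 CPM after mock treatment. MpAGO4a (Mp1g23190), of the Argonaute proteins that carry small RNAs, rose by 1.48 ± 0.09, and the bromodomain gene MpBromo5 (Mp2g14370) by 1.53 ± 0.05.

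Markers of cell types that the fragments could hold were read in the same libraries. Of 5 oil body genes, 1 rose and 4 fell. Their summed level was 89.9, 90.7 and 95.6 CPM after wounding and 95.8, 86.5 and 92.4 CPM after mock treatment, and most of it came from the member that rose, MpC1HDZ (Mp3g02320), a transcription factor of oil body cell formation, with 70.3, 69.7 and 73.1 CPM after wounding and 63.3, 53 and 59.8 CPM after mock treatment. Its rise was not called with quantile normalization, library totals or voom, or without wounded replicate 3. MpSYP12B (Mp4g20670), a syntaxin of the oil body membrane, had 2.3, 2.79 and 2.98 CPM after wounding, against 4.99, 5.77 and 5.46 CPM after mock treatment, and MpERF13 (Mp6g08690), a regulator of oil body formation, had 2.3, 1.64 and 2.45 CPM after wounding, against 4.31, 3.98 and 3.17 CPM after mock treatment. Of 3 male germline genes tested, 2 rose, and 2 more, MpLC7 and MpPRM, were below 0.1 CPM in every Mpcoi1 library. MpCEN1 (Mp1g00710) was the highest of the 3, with 75.8, 73.1 and 68.5 CPM after wounding and 53.6, 54.2 and 52.5 CPM after mock treatment. MpGEX2 (Mp4g06790) had 2.69, 3.05 and 2.85 CPM after wounding and 3.14, 2.8 and 3.09 CPM after mock treatment. MpDUO1 (Mp1g13010), a male germline factor, was low but higher after wounding, at 3.46, 3.4 and 6.85 CPM after wounding, against 0.756, 0.812 and 0.875 CPM after mock treatment. Whether a shift in cell types has a part in any of the changes above was not tested.

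Most of the Mpcoi1 response was shared with the wild type. Of all 3234 rises in Mpcoi1, 2605 were also called as rises in Tak-1, and 616 were not called there. Of the 3765 falls, 2887 were also called as falls in Tak-1, and 758 were not called there. Among all 13220 tested genes, 3439 rose and 4041 fell in Tak-1. Of the 974 rises of 2-fold or more in Mpcoi1, 957 also rose in Tak-1, and the difference between the genotypes was not called for 806. Of the 312 with 2-fold falls, 294 also fell in Tak-1 and 285 showed no called difference. Of the 974 rises, 100 were larger and 68 smaller than in Tak-1. Picking genes by a large rise in Mpcoi1 favours calls of a larger response. These counts are therefore not set against the shares over all tested genes. Over all tested genes the response was larger in Mpcoi1, as a signed log2 value, for 317 genes (2.40%) and smaller for 684 (5.17%). The share of larger responses among these calls was 31.7%, and 41.9% with quantile normalization and 41.3% with library totals. Without single libraries the count of larger responses ran from 172 to 409, with 205 without mock replicate 2, 172 without mock replicate 3 and 179 without wounded replicate 1 of Mpcoi1, and 198 without mock replicate 3 of Tak-1.

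**Figure D4:**
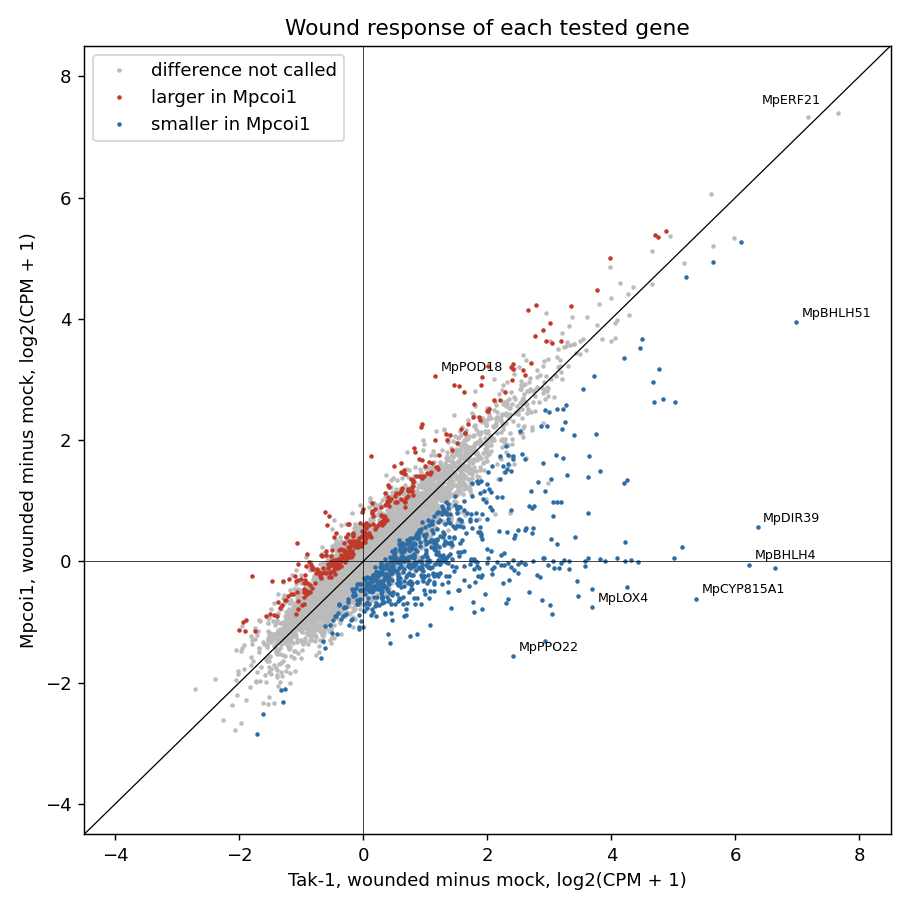
Wound response in Mpcoi1 (vertical axis) against that in Tak-1 (horizontal axis), each as a log2 change of CPM + 1, with one point for each of the 13220 tested genes and the diagonal of equal response. Coloured points are the 317 genes with a larger and the 684 with a smaller response in Mpcoi1, and MpCYP815A1, at the lower right, rose in Tak-1 and fell in Mpcoi1.

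Genes that rose in Mpcoi1 and did so more than in Tak-1 numbered 194, of which 100 reached 2-fold in Mpcoi1 and 92 also exceeded the response of Mpdes6fad5. Of the LEA and abscisic acid list, 9 of 73 genes (12.3%) had a larger response in Mpcoi1, against 2.40% of tested genes, and 5 (6.85%) had a smaller one, against 5.17%. The count of larger responses in the list depended on the setting, with 2 larger and 2 smaller with voom, and 14 larger with quantile normalization or without wounded replicate 3. MpLEA-like37 rose more in Mpcoi1 than in Tak-1 by 1.49 ± 0.32 (adjusted p = 0.00591), with 7.27, 12.9 and 5.59 CPM in wounded and 0.569, 0.361 and 0.443 CPM in mock Tak-1. MpLEA-like27 (Mp4g14880) had 12.7, 12.5 and 16.1 CPM in wounded and 0.793, 0.934 and 1.25 CPM in mock Mpcoi1 libraries, and its response was larger by 1.34 ± 0.39. MpLEA-like12 (Mp3g04820) stood at 2.77, 3.67 and 3.74 CPM in wounded and 0.189, 0.406 and 0.334 CPM in mock Mpcoi1, but at 0.0527, 0.325 and 0.616 CPM in wounded and 0, 0.361 and 0.266 CPM in mock Tak-1. MpLEA-like4 (Mp1g23200), MpLEA-like22 (Mp4g14800) and MpLEAL5 (Mp4g05760) differed by 1.01 ± 0.15, 1.29 ± 0.37 and 1.17 ± 0.33. The mock level of MpLEA-like4 was lower in Mpcoi1 than in Tak-1 (-0.42, adjusted p = 0.0228). The response of MpLEA-like4 in Mpcoi1 was smaller than in Mpdes6fad5, with a difference of -0.63 (adjusted p = 0.0064), as was that of MpLEA-like39, with -1.50 (adjusted p = 7.20e-04). For MpLEA-like37, MpLEA-like27, MpLEA-like12, MpLEA-like22 and MpLEAL5 no difference of response from Mpdes6fad5 was called. Their levels, however, were higher in Mpdes6fad5 than in Mpcoi1 after both treatments. MpLEA-like37 had 119, 122 and 173 CPM in wounded and 16.1, 10 and 8.99 CPM in mock Mpdes6fad5. The call of the difference from Tak-1 was lost in 16 of 24 alternative settings for MpLEA-like27 and in 13 of 24 for MpLEA-like22 and MpLEAL5, and with voom for MpLEA-like37.

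Some redox genes and single members of other families also responded more in Mpcoi1. Of the 73 redox genes, 8 (11%) had a larger and 4 (5.48%) a smaller response, and with voom 4 were larger and 4 smaller. MpCAT1 differed by 1.03 ± 0.15 (adjusted p = 1.13e-04) and MpGST38 by 0.68 ± 0.19 (adjusted p = 0.0334), the call for MpGST38 being lost in 13 of 24 alternative settings and that for MpCAT1 with voom. The peroxidase gene MpPOD18 showed the largest such difference among named genes, 1.90 ± 0.25 (adjusted p = 4.44e-05). It had 17.1, 11.9 and 15.5 CPM in wounded and 0.604, 1.54 and 0.667 CPM in mock Mpcoi1, whereas Tak-1 held 14.5, 13.3 and 15.5 CPM after wounding and 6.67, 5.66 and 5.49 CPM after mock treatment. The wounded libraries of the genotypes overlapped and the mock ones did not (mock Mpcoi1 minus mock Tak-1 -1.87 ± 0.18, adjusted p = 3.64e-06). MpR2R3-MYB17 and MpERF18 rose more in Mpcoi1 by 0.85 ± 0.14 and 0.58 ± 0.11, and MpCupin86 by 0.68 ± 0.14. The mock level of MpCupin86 was lower in Mpcoi1 than in Tak-1 (-0.44 ± 0.10, adjusted p = 0.0141), and the wounded libraries of the genotypes overlapped. For MpYUC2 the fall was less deep than in Tak-1, a difference of 0.93 ± 0.16 (adjusted p = 9.61e-04).

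A further set of genes rose in Tak-1 and fell in Mpcoi1. There were 120 such genes, with a median of -0.46 in Mpcoi1 and 0.67 in Tak-1, and 13 genes did the reverse. The difference was called for all 120, which largely follows from picking genes called in opposite directions. MpCYP815A1 (Mp1g15990), a cytochrome P450 gene, had 2.69, 2.52 and 3.96 CPM in wounded and 5.74, 4.75 and 5 CPM in mock Mpcoi1 libraries, against 646, 754 and 541 CPM in wounded and 13.4, 20 and 11.6 CPM in mock Tak-1. The polyphenol oxidase gene MpPPO22 (Mp5g18380) had 23.7, 26 and 59.4 CPM after wounding and 104, 92.8 and 104 CPM after mock treatment in Mpcoi1 (-1.56 ± 0.22), with wounded replicate 3 above the other wounded libraries, and its responses differed by -3.98 ± 0.31. MpGH3A (Mp6g07600), of the enzymes that couple hormones to amino acids, had 20.2, 20.7 and 25.1 CPM after wounding, against 40.7, 41.9 and 39.9 CPM in mock Mpcoi1 (-0.87 ± 0.13, difference from Tak-1 -3.91 ± 0.19). The lipoxygenase gene MpLOX4 (Mp5g21680) and MpCYP74N2 (Mp5g16260), of the CYP74 family of oxylipin enzymes, fell by the same test, at -0.75 ± 0.23 and -0.67 ± 0.07. The fall of MpLOX4 was not called without wounded replicate 3, with voom or with 5 CPM added, and that of MpCYP815A1 was not called with voom. Mp4CL2 (Mp1g05060) had 66.9, 72.3 and 80 CPM in wounded and 106, 101 and 103 CPM in mock Mpcoi1, and 806, 837 and 721 CPM in wounded and 112, 136 and 119.8 CPM in mock Tak-1. The dirigent gene MpDIR17 (Mp7g06220) fell in Mpcoi1 (-0.19 ± 0.06), and its responses differed by -2.68 ± 0.09. Without wounded replicate 1 its fall in Mpcoi1 was not called. Mock levels were lower in Mpcoi1 than in Tak-1 for MpLOX4 (-1.58 ± 0.23), MpCYP815A1 (-1.34 ± 0.16), MpDIR17 (-0.61 ± 0.06), MpGH3A (-0.49 ± 0.13) and MpCYP74N2 (-0.34 ± 0.07). For MpPPO22 and Mp4CL2 no mock difference was called.

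Some rises were present in Mpcoi1 but smaller than in Tak-1. Of the 2-fold rises in Mpcoi1, 68 were smaller than in Tak-1. MpBHLH51 still rose by 3.94 ± 0.19, and its response minus that of Tak-1 was -3.03 ± 0.27. In Tak-1 it had 192, 204 and 124 CPM after wounding, against 0.207, 0.802 and 0.133 CPM after mock treatment. MpBHLH2 differed by -2.91 ± 0.13, MpERF15 by -1.60 ± 0.38 and MpGRAS7 by -1.64 ± 0.27. The mock level of MpERF15 was lower in Mpcoi1 than in Tak-1 (-1.07 ± 0.27, adjusted p = 0.025). For MpBHLH51, MpBHLH2 and MpGRAS7 no mock difference was called. With voom the differences of MpBHLH51, MpERF15 and MpGRAS7 were not called, and those of MpERF15 and MpGRAS7 were also lost with 0.1 CPM added and on the deposited log2 values. Mp4CL1 differed by -0.84 ± 0.09 (adjusted p = 3.78e-06) and MpPIN3 by -1.32 ± 0.25 (adjusted p = 0.00159).

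At the other end, 8 tested genes had no read in any of the 6 Mpcoi1 libraries. Such a gene passed the filter only with at least 1 CPM in at least 3 libraries of the other genotypes. Of these 8 genes, 6 rose in Tak-1, a count that the filter favours. They include MpPPO31 (Mp3g24060) and the dirigent genes MpDIR61 (Mp5g16460), MpDIR65 (Mp5g16440) and MpDIR41 (Mp5g16480). MpDIR61 had 14.5, 11.3 and 16.7 CPM in wounded Tak-1, against 0, 0.0401 and 0 CPM in mock Tak-1. MpPPO31 had 19.2, 17.3 and 32.1 CPM in wounded Tak-1, against 0, 0.281 and 0.487 CPM in mock Tak-1. A neighbour on chromosome 5, MpDIR39 (Mp5g16510), was detected in Mpcoi1 and rose by 0.56 ± 0.16, with 1.66, 3.23 and 1.56 CPM after wounding and 0.831, 1.34 and 1.08 CPM after mock treatment, and its response minus that of Tak-1 was -5.80 ± 0.22. The small rise in Mpcoi1 was not called with voom or with 5 CPM added.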

How the data were processed

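RNA of Marchantia polymorpha was sequenced in 18 libraries, 3 for each of 6 groups. The values are log2 CPM, counts scaled to library size, deposited by the authors for 20574 genes, with one shared lowest value for a gene without a read. Per the submitters' processing notes the tools were Trim Galore, HISAT2, HTSeq and edgeR, with versions and build not given in the sources used here. CPM was recovered by undoing the logarithm and the added constant, and 100% of values up to 1000 reads then came out as whole reads within 0.01 read. Columns that matched no sample numbered 0.

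Genes with at least 1 CPM in at least 3 libraries were tested, which left 13220, and 2688 genes had no read. log2(CPM + 1) was fitted with limma 3.58.1 in R 4.3.3 over all 18 libraries with one mean per group and a mean-variance trend, without a block, and p-values were adjusted by Benjamini-Hochberg over all tested genes. Adding 1 CPM understates the change of low genes. Limits for a gene without a read are 3 reads and cover counting error only. The fit was checked on simulated data. The alternatives were other constants, filters, scalings, voom in limma on the recovered reads, fewer libraries and a replicate block.

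The replicates are described as independent biological replicates. Symbols come from the annotation of RefSeq assembly MpTak2_v7.1, used for names only, and 3091 genes have one. Genes were named by rule: the core jasmonate genes, the largest rises and falls with a symbol and libraries that do not overlap, the largest differences from Tak-1 either way, genes of opposite direction, and up to 4 largest changes of each of the gene lists. The members and lists were chosen with earlier results of these data known. The ABC transporter, autophagy, trafficking, peroxisome, chromatin and pentatricopeptide lists were added later. A gene can stand in several lists.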

Additional observations from a re-analysis of the deposited data

Results flagged for a closer look

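The wound response of the following genes differed between Mpcoi1 and Tak-1 by limma's test of the difference itself, and each value is the Mpcoi1 response minus the Tak-1 response on the log2(CPM + 1) scale, from 3 libraries per group.

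Some genes had a larger response in Mpcoi1. Among LEA genes the difference was 1.49 for MpLEA-like37, 1.34 for MpLEA-like27, 1.29 for MpLEA-like22, 1.17 for MpLEAL5 and 1.01 for MpLEA-like4. Among peroxidase and redox genes it was 1.90 for MpPOD18, 1.03 for MpCAT1 and 0.68 for MpGST38. Transcription factor genes with a larger response gave 0.85 for MpR2R3-MYB17, 0.58 for MpERF18 and 0.50 for MpNAC4. The cupin gene and the auxin synthesis gene gave 0.68 for MpCupin86 and 0.93 for MpYUC2, the positive value of MpYUC2 standing for a fall that was less deep in Mpcoi1.

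Other genes had a smaller response in Mpcoi1. Among those that fell in Mpcoi1 and rose in Tak-1, the difference was -3.98 for MpPPO22, -3.91 for MpGH3A and -2.68 for MpDIR17. For genes that rose in both genotypes it was -5.80 for MpDIR39, -3.03 for MpBHLH51, -2.91 for MpBHLH2, -2.07 for MpJAZ, -1.64 for MpGRAS7, -1.60 for MpERF15, -1.32 for MpPIN3 and -0.84 for Mp4CL1. What sets these differences was not tested.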

How the results depend on the processing

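Counts of rises and falls in Mpcoi1 stayed within 1.5 times of 3234 and 3765 under every constant, filter, scaling and model tried. The exception was a required change of at least 2-fold, which left 974 rises and 312 falls. Leaving out single Mpcoi1 libraries gave 2919 to 3148 rises and 3228 to 3518 falls. Rises made up 46.2% of calls, against 37.7% with quantile normalization and 37.5% with library totals.

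The count of larger responses in Mpcoi1, 317, was 187 when only the 12 Tak-1 and Mpcoi1 libraries were fitted. It ran between 172 and 409 without single libraries, and the count of smaller responses between 579 and 820.

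Of 154 single-gene results followed through the alternatives, 138 kept direction and call under all alternatives run and 16 lost the call in at least one, while 0 reversed. The rise of MpC1HDZ, whose call was also lost in some settings, is not among these results. Same-numbered Mpcoi1 libraries did not deviate together (correlations -0.031, -0.155 and -0.083), and with the replicate block 3230 genes rose and 3739 fell, and 304 responses were larger and 687 smaller. Depth limits genes without reads in Mpcoi1 to at most 0.133 CPM. The planned description of promoter motifs was not run, since no promoter sequences were used here.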
